A study of Mus musculus with 8 samples.

Results

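The ear epidermis of control mice was described from the 4 RNA libraries labelled A20WT, of 8 libraries in the series. They were chosen by label alone, and the other 4 libraries are not used here. Each A20WT library came from a different mouse of genotype A20F/F Krt5-CreERT2-, so the animals carried floxed alleles of A20, the gene Tnfaip3, and no Cre recombinase. All 4 mice were 8 weeks old, had received 1 mg of tamoxifen into the peritoneum in each of 2 injections on consecutive days, and were killed 7 days after the first injection. The baseline given here is therefore that of tamoxifen-treated, floxed animals, and untreated or unfloxed mice are not part of it. Epidermal sheets were lifted from split ear skin after an overnight float on trypsin and lysed by bead beating, so the RNA is that of a whole sheet and not of sorted cells. Because the sheets were measured in bulk, fewer cells of a type and less RNA per cell cannot be told apart in any value below. The labels give no sex. Xist, the RNA that silences one X chromosome in female cells, lay between 15.3 and 24.4 CPM in the 4 libraries, while the Y-linked genes Ddx3y, Eif2s3y, Kdm5d and Uty were at 0 counts throughout. Of 1570 genes that the annotation places on the Y chromosome, 6 had a count, with 6230 counts in all, of which 6132 lay on Gm47283.

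The epidermis is a layered sheet of keratinocytes. Basal cells attach to the basement membrane, divide, and carry the keratin pair Krt5 and Krt14, whereas cells that move upwards switch to Krt1, Krt2 and Krt10 and finally turn into a dead cornified layer of crosslinked protein and lipid. In mice the sheet also houses Langerhans cells, which sample antigens, and dendritic epidermal T cells with an invariant gamma-delta receptor. Keratinocytes themselves carry innate receptors, and A20 is a ubiquitin-editing enzyme that limits signalling to NF-kB and cell death downstream of several of these.

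Levels are given as counts scaled to the library total (CPM) when 1 gene is followed across mice. When genes are set against each other, the CPM were divided by exon length and rescaled to the same sum in every library (TPM, a level per length). Errors are SD over the 4 mice. Summed counts were 89624373, 52972464, 84526606 and 65438469 in mice 1 to 4, so that 3 counts, the limit that a count of 0 allows, correspond to between 0.0335 and 0.0566 CPM. These limits cover counting error only, since the libraries were amplified by PCR without molecular identifiers. Levels across genes of mean at least 5 CPM ranked alike in all pairs of mice, with a Spearman coefficient across genes from 0.947 to 0.99, and genes are not independent replicates.

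The libraries differed by transcript length, and this touches many values below. In the 2049 genes with the shortest transcripts, up to 1925 bases, mouse 1 was above the gene's mean by a median of 0.25 on the log2 scale and mouse 2 stood at a median of -0.15. Among the 2048 genes with the longest transcripts, from 5155 bases, the order was turned round, with a median of -0.30 in mouse 1 and 0.27 in mouse 2. Mouse 4 stayed between -0.09 and 0.00 in all 5 groups of genes. What set this pattern was not tested. For some results, values after length centring are given too. In that step each library's median log2 deviation was subtracted within 20 bins of transcript length, an alternative chosen after seeing the data. All other levels and ratios of single mice are as counted and were not freed of the length pattern.

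**Figure D1:**
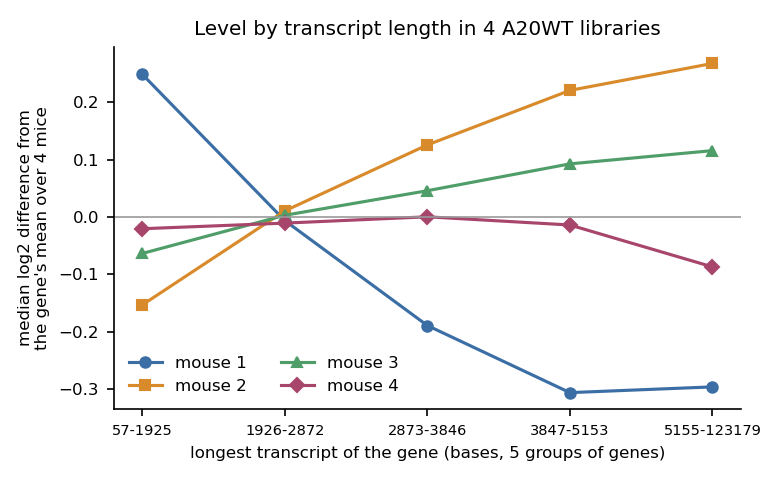
Median log2 difference of each A20WT library from a gene's mean over 4 mice (vertical axis), for genes of mean at least 5 CPM split by the length of their longest transcript (horizontal axis, 5 groups of genes, in bases). Mouse 1 falls from 0.25 in the shortest group to -0.30 in the longest, while mouse 2 goes from -0.15 to 0.27.

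Of 51912 genes in the files, 12175 reached 1 CPM in each of the 4 libraries, and 11494 of these were protein-coding. The 11494 are 52.6% of all protein-coding genes, the share beside which counts of detected genes in the lists below can be set. Single libraries held between 12709 and 12846 genes at that level. The 10 most abundant genes by mean CPM were Krt2, Krt14, Krt10, Lor, Calm4, Apoe, Perp, Krt15, Krt5 and Itm2b. Together they took 13%, 11.1%, 12% and 13.2% of the counts of mice 1 to 4, and Krt2, Krt14 and Krt10 alone took 7.62% ± 0.692 (SD, n = 4). The mitochondrial genome gave only 0.156% to 0.296% of counts, lowest in mouse 4.

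Of the 20 protein-coding nuclear genes with the highest level per length, 5 were keratins. Krt2, a keratin of upper suprabasal cells, led with 36510.4 ± 6491 TPM, ahead of the basal keratin Krt14 with 28519.8 ± 4230.4 TPM. Calm4, a calmodulin-like calcium-binding protein of epidermis, reached 20876 ± 2965 TPM, and the suprabasal keratin Krt10 reached 19998 ± 2359 TPM. After them came Ly6d (17399.8 TPM), a surface protein of stratified epithelia, the secreted keratinocyte protein Krtdap (13769.8 TPM) and Lor (10766 TPM), the major protein of the cornified envelope. Krt15, a basal keratin, stood at 9061 TPM, Perp, a desmosome-associated membrane protein, at 8352 TPM, the lipid carrier Apoe at 7741 TPM, and Krt5 at 6995 TPM. The remaining 9 places, from 5704 down to 3677 TPM, were held by Dmkn, Gltp, Itm2b, Asprv1, Hspb1, Lce1m, Fam25c, S100a11 and Lgals3. Among them are Dmkn, a secreted protein of differentiated keratinocytes, and Asprv1, a protease that cuts profilaggrin.

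Keratin genes together held 9.88%, 10.8%, 10.7% and 12.1% of the length-scaled level in mice 1 to 4, or 10.9% ± 0.913 (SD, n = 4). A single gene of 57 bases, not protein-coding, held 9.6%, 5.43%, 6.13% and 6.83% of that level. It lowers every other TPM given here, most in mouse 1. Without genes of exon length under 200 bases the keratin share was 11%, 11.5%, 11.4% and 13%, or 11.7% ± 0.889. Of 54 genes named as a keratin with a number, 23 reached 1 CPM in every mouse and 23 stayed below it in every mouse, which includes Krt9, the keratin of sole skin, with 0 counts. The 3 basal keratins summed to 44575 ± 3496 TPM and the 12 suprabasal keratins to 60542 ± 8045 TPM.

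Krt5, the basal type II keratin on chromosome 15 at 101707070 to 101712898 (GRCm38), was among the steadiest abundant genes, with 6652, 5839, 6076 and 6403 CPM in mice 1 to 4. Its type I partner Krt14, on chromosome 11 at 100203162 to 100207548, measured 24916, 15984, 17598 and 23670.5 CPM, higher in mice 1 and 4 than in mice 2 and 3. Although both proteins pair in one filament, Krt14 exceeded Krt5 per length in every mouse, by 4.68, 3.42, 3.62 and 4.62 times. Krt15, which shares the basal layer, ran at 6852, 7755, 5455 and 5812 CPM and was highest in mouse 2.

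Krt2, on chromosome 15 at 101810689 to 101818169, stood at 31842, 38301, 42092 and 41473 CPM and was lowest in mouse 1. For Krt10, on chromosome 11 at 99385254 to 99389364, the values were 18205, 14356, 16056 and 20255 CPM. Krt1, the type II keratin usually named as the partner of Krt10, was far lower, with 1387, 1417, 1675 and 3731 CPM, and mouse 4 stood well above the other 3 mice. Per length, Krt10 exceeded Krt1 by 27.4, 21.2, 20 and 11.3 times and Krt2 exceeded Krt1 by 38.8, 45.7, 42.5 and 18.8 times. The size of these ratios rests on exon lengths of 4415 bases for Krt1, 2114 for Krt10 and 2613 for Krt2. In these ear sheets the type II keratin that ran at a level near Krt10 was Krt2, which exceeded it by 1.42 to 2.16 times per length.

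Down the order of TPM, Krt2 exceeded Krt14 in 3 of 4 mice, and mouse 1 had the reverse. The steps from Krt14 to Krt10, to Krt15, to Krt5 and to Krt17 held in 4 of 4 mice. Krt17, a keratin of follicles and of stressed epidermis, reached 2086 ± 353 TPM, and its step down to Krt1 also held in 4 of 4. These steps depend on the exon lengths used, such as 1551 bases for Krt17 and 4415 for Krt1. By CPM, Krt1 exceeded Krt17 in mice 2, 3 and 4 (1417, 1675 and 3731 against 1108, 1055 and 1612 CPM). Also by CPM, Krt5 exceeded Krt15 in mice 3 and 4, Krt79 exceeded Krt24 in every mouse, and Krt2 exceeded Krt14 in mouse 1. Krt1 (1147 ± 626 TPM) and Krt24 (1129 ± 132 TPM) did not differ beyond their spread, and Krt1 was the higher in 1 of 4 mice. Krt79, a keratin of the upper follicle and sebaceous duct, and Krt23 followed at 772 ± 81.2 and 697 ± 84.2 TPM. Among 23 matched keratins of hair shaft and sheath only 4 reached 1 CPM in all mice, and Krt28 and Krt27 stayed between 1.15 and 3.92 CPM.

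Promoter sequences of 4 leading genes are shown because the most abundant genes carried the TATA box letters near their start more often than detected genes in general. The motif TATAAA was searched in windows of 300 bases, from 250 before to 50 after the start, taken from RefSeq (GRCm38.p6). Of the 100 protein-coding genes with the highest TPM, 75 matched a RefSeq promoter by symbol. Of these, 12 (16%) had the motif on the gene's strand lying wholly within the stretch from 40 to 16 bases before the start, against 1.52% of 9117 genes detected in all libraries and 1.99% of all 32851 promoters in the table. On either strand and anywhere in the window the shares were 25.3%, 8.54% and 13.6%. A match describes letters and was not tested as a site of binding. The 250 bases before the start are given 5′ to 3′ on the gene's strand with TATAAA in capitals. Krt10, Lor and Krtdap held the motif 26, 27 and 30 bases before the start. Krt2 did not hold the exact letters TATAAA in its window on either strand. Its sequence reads tatataag near the start, similar letters that the search did not count, so a TATA box in Krt2 is not excluded.
Krt2 promoter, chr15:101818170-101818419, minus strand: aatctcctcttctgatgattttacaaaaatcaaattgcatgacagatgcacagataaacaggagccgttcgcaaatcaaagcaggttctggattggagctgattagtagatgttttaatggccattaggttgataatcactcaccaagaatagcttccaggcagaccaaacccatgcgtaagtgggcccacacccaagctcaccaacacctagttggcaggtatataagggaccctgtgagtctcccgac
Krt10 promoter, chr11:99389365-99389614, minus strand: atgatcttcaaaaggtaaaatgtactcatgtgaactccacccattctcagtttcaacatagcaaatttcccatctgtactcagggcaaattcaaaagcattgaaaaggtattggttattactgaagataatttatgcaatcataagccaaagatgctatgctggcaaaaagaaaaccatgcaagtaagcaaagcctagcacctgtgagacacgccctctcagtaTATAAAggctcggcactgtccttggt
Lor promoter, chr3:92083143-92083392, minus strand: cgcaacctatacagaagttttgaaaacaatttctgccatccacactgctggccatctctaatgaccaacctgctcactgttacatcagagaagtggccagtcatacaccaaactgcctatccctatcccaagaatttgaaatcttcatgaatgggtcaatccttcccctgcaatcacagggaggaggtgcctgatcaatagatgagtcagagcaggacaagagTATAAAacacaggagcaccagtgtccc
Krtdap promoter, chr7:30787655-30787904, plus strand: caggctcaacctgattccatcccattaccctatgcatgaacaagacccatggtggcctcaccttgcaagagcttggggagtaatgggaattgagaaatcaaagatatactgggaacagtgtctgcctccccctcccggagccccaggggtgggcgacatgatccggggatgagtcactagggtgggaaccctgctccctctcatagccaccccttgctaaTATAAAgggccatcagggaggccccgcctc

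**Figure D2:**
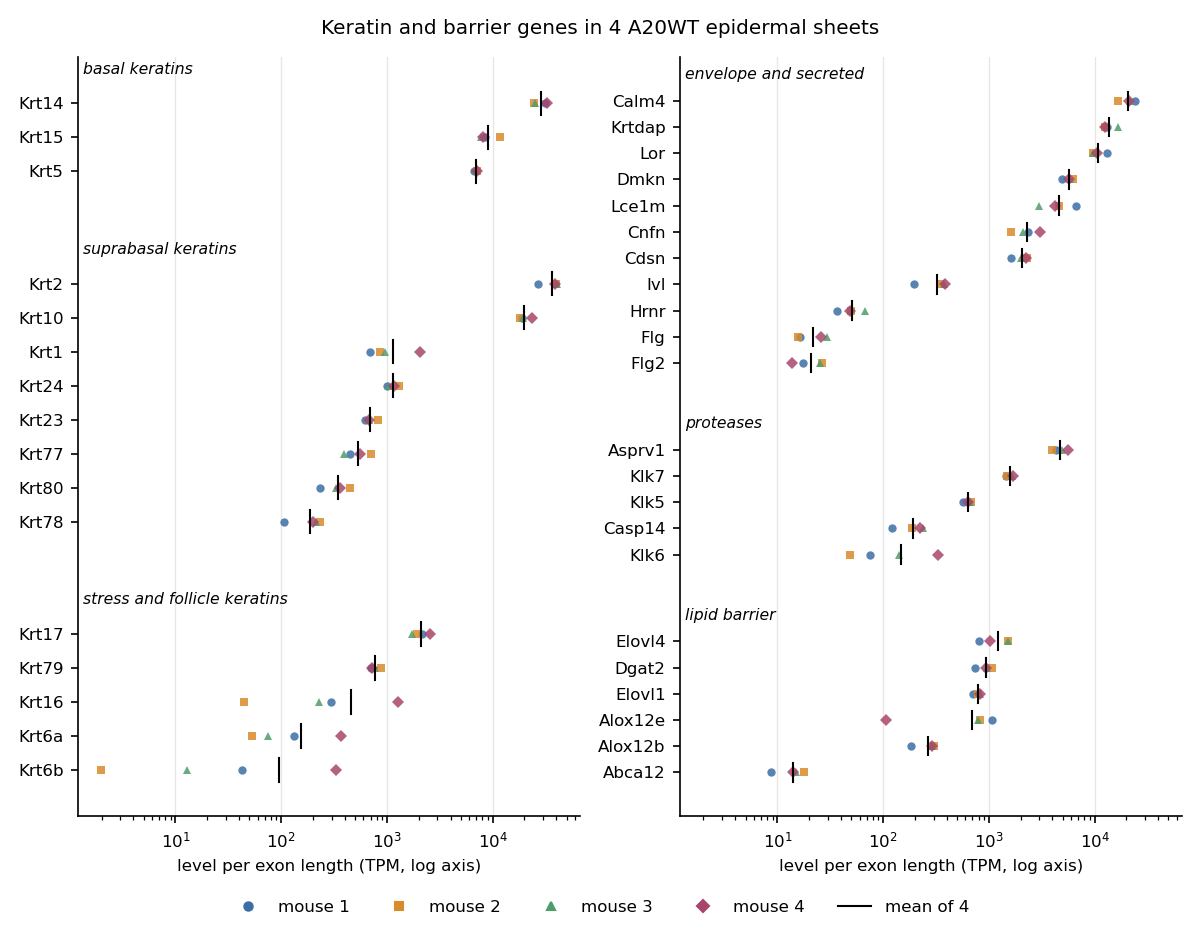
Level per exon length (TPM, horizontal log axis) of keratin and barrier genes in the 4 A20WT libraries; each symbol is 1 mouse and the black bar is the mean of 4. Krt2, Krt14 and Krt10 lie between 18259 and 40881 TPM in every mouse, while Krt6b spreads most and Alox12e has mouse 4 apart at 107 TPM.

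Genes of the cornified envelope, the crosslinked protein shell of dead surface cells, were abundant but uneven in level. Lor measured 10596, 6421, 6736 and 7713 CPM and was highest in mouse 1, which remained highest after length centring at 9758 CPM. Involucrin (Ivl), an early envelope protein, was at 173, 249, 285 and 301 CPM, with mouse 1 lowest. Per length, Lor exceeded Ivl by 66.3 times in mouse 1 and by 25.5 to 27.9 times in the other 3 mice. The large S100-fused proteins were lower per length, with Hrnr at 50.5 ± 12.9, Flg at 21.9 ± 6.76 and Flg2 at 20.8 ± 6.23 TPM. Flg, the filaggrin precursor that aggregates keratin and is cut into moisturising amino acids, varied from 110.5 CPM in mouse 2 to 216 CPM in mouse 3.

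The late cornified envelope genes, small proteins of the outer envelope clustered on chromosome 3, were followed as the Lce1 and the Lce3 genes. All 14 Lce1 genes reached 1 CPM in every mouse and summed to 21976 ± 4574 TPM. As counted, 14 of 14 were highest in mouse 1, against 29.6% of all genes of mean at least 5 CPM. After length centring 6 of the 14 were highest in mouse 1, 7 in mouse 4 and 1 in mouse 3, so the order of mice turned with the scaling. The shares of all genes were then 34.9%, 21.2% and 18.4%. Lce1m led them with 2901, 1629.9, 1104 and 1645 CPM. Length centring brought the median CV of the 21 late envelope genes from 29.5% to 15.8%. The 6 Lce3 genes were all highest in mouse 4 and lowest in mouse 2, both as counted and after length centring, and each spanned at least 4-fold. Of all 10247 genes of mean at least 5 CPM, 366 had that order as counted, and 0.468% spanned 4-fold. Lce3b ran at 1.44, 0.17, 2.5 and 30.9 CPM and Lce3a at 2.69, 0.359, 3.49 and 34.8 CPM. The Lce1 copies resemble each other, so reads could have been split among them in the authors' counting, and levels of single copies are uncertain.

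The small proline-rich genes, crosslinking bridges of the envelope that are known to rise in stressed epidermis, followed the Lce3 pattern. All 7 members of mean at least 5 CPM were highest in mouse 4 and lowest in mouse 2, against 366 of all 10247 genes. After length centring 7 were highest in mouse 4 and 6 lowest in mouse 2, against 21.2% and 27% of all genes. Sprr1a, the most abundant by TPM, measured 249.9, 132, 209 and 352 CPM. Sprr1b measured 19.9, 1.6, 24.1 and 62.9 CPM, and Sprr2d measured 17.7, 3.28, 23.4 and 65.9 CPM. Sprr2a1, Sprr2a2 and Sprr2a3 are near copies of each other, and the division of counts among them is uncertain.

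Secreted and crosslinking proteins of the cornified layers were steadier. Dmkn held 4892, 5097, 5054 and 5182 CPM, a CV of 2.41%, and Sbsn, encoded beside it, 1435, 1496, 1325 and 1469 CPM. Krtdap, from the same cluster on chromosome 7, had 4026, 3181, 4490.3 and 3499.8 CPM. Corneodesmosin (Cdsn), an adhesive protein of cornified cells, was at 2057 ± 303 TPM and cornifelin (Cnfn) at 2282 ± 612 TPM. Of the protein-crosslinking transglutaminases, Tgm1 stood at 135 ± 26.2 TPM, Tgm5 at 61.2 ± 11.7 TPM and Tgm3 at 46 ± 11 TPM.

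Proteases of the outer layers and their inhibitors were well represented. Of the list, 20 of 22 genes (90.9%) reached 1 CPM in all mice, against 52.6% of all protein-coding genes. Asprv1 led with 3052, 2295, 3002 and 3538 CPM, followed by the kallikrein Klk7, which cuts corneodesmosomes, with 1249, 1052, 1250.1 and 1319 CPM. Klk5, the kallikrein that activates Klk7, kept to 345, 339, 352 and 350 CPM, and Klk7 exceeded it per length by 2.19 to 2.66 times. Of the 20 genes of the list with a mean of at least 5 CPM, 2 spanned at least 4-fold, against 0.468% of all genes. Klk6, 1 of these 2, had 52.2, 27.4, 83.8 and 204 CPM, highest in mouse 4 and lowest in mouse 2. That order was shared by 9 of the 20 genes, against 366 of 10247 among all genes. Spink5, the inhibitor that holds kallikreins in check, was at 390.3 ± 72 TPM.

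Lipid barrier genes were broadly present, with 38 of 39 (97.4%) at 1 CPM in all mice, against 52.6% of all protein-coding genes. Their median CV of 15.4% equalled that of all genes of mean at least 5 CPM. Of the 38 genes at that level, 2 spanned at least 4-fold, against 0.468% of all genes. Mouse 1 was lowest in 29 of the 38, against 47.4% of all genes, and in 21 after length centring, against 33.1%. Elovl4, which makes the very long fatty acids of barrier ceramides, led with 1112, 1707, 1813 and 1277 CPM. Next per length were Dgat2 (932 ± 139 TPM), a triglyceride synthase, Elovl1 (791 ± 54.3 TPM) and Fabp5 (717 ± 165 TPM), a fatty acid carrier. The lipoxygenases split: Alox12b, needed for the lipid envelope, stood at 201, 274, 277 and 288 CPM, whereas Alox12e, an epidermal 12-lipoxygenase on chromosome 11 at 70315610 to 70322628, stood at 1369, 858, 888 and 123 CPM. Mouse 4 lay far below the other 3 for Alox12e, and length centring left it at 123 CPM. Degs2, a ceramide hydroxylase, was highest in mouse 4 and lowest in mouse 2, with 14.8, 9.42, 27.7 and 54 CPM.

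Junction genes were among those that carried the length pattern. In the desmosome list 15 of 17 genes reached 1 CPM in every mouse, and 12 of the 14 with a mean of at least 5 CPM were lowest in mouse 1, against 47.4% of all genes at that level. After length centring 10 of the 14 were lowest in mouse 1, against 33.1% of all genes. Dsg1a, a desmosomal cadherin, ran at 393, 1024, 940.1 and 561 CPM. The median CV of the desmosome list was 29.3% as counted and 15% after length centring. Per length the desmosome was led by Perp, the plaque protein Jup (1033 ± 247 TPM), the plakophilin Pkp3 (919 ± 178 TPM) and Pkp1 (496 ± 145 TPM). Dsg1a exceeded Dsg3, the desmoglein of deeper layers, by 19.3 to 23.7 times per length. Dsg4, a desmoglein of the hair shaft, was at 0.0112 CPM in mouse 1 and had 0 counts in the other 3.

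At the other junctions, E-cadherin (Cdh1) measured 366, 787, 651 and 544 CPM, with mouse 1 lowest before and after length centring. Gjb6, a gap junction gene raised in hyperproliferative epidermis, had 9.84, 7.12, 13.9 and 21.8 CPM, highest in mouse 4. At the basement membrane, Col17a1, the collagen of hemidesmosomes, reached 1171, 2348, 1919 and 1591 CPM, and after length centring 1511, 1927, 1758 and 1645 CPM.

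All 29 keratinocyte transcription factors of the list reached 1 CPM in every mouse. Klf4, a factor of barrier formation, led per length with 472 ± 40.9 TPM, followed by Cebpb (463 ± 102 TPM), Gata3 (355 ± 51.2 TPM) and Klf5 (330.1 ± 29.7 TPM). Trp63, the p63 gene that specifies stratified epithelium, measured 238, 423, 413 and 317 CPM, and after length centring 307, 347, 378 and 328 CPM. Klf4 exceeded Trp63 per length, as counted, by 3.51 to 7.74 times. Jag2 was the Notch ligand with the higher level and exceeded Jag1 by 6.02 to 8.22 times per length.

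Dividing cells were represented at modest levels. Mki67, made only in cycling cells, stood at 32.7, 38.1, 29.2 and 26.4 CPM and Top2a at 37.9, 46.6, 44.6 and 42.1 CPM. Birc5, a mitotic gene, was higher in mouse 1 (63.2 CPM) than in the other 3 (30.8 to 36.8 CPM). Per length the list was led by the cell cycle inhibitor Cdkn1a with 510.2 ± 49.6 TPM. Next came cyclin D2 (Ccnd2) with 279 ± 39 TPM, which exceeded cyclin D1 (Ccnd1) by 14.8 to 17.6 times.

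Markers of the skin appendages were present in the sheets. All 18 sebaceous genes reached 1 CPM in every mouse, with the desaturase Scd1 at 1527, 3544, 2728 and 1992 CPM. Several of these, such as Scd1, Dgat2 and Krt79, are also made outside the gland, so their sum is no measure of gland cells. Mc5r, a receptor of sebocytes, was at 7.33, 10.7, 8.46 and 6.88 CPM, and Awat1, a wax ester synthase, at 77.6, 93.8, 92 and 74.4 CPM. Scd3, a sebocyte desaturase, stood at 19.1, 20.2, 17.1 and 3.06 CPM, with mouse 4 low as for Alox12e. Of the 16 sebaceous genes of mean at least 5 CPM, 14 were highest in mouse 2, against 42.6% of all genes. Mouse 4 was lowest in 11 of them, against 20.8%. After length centring these counts were 12 and 10, against 25.6% and 22.3% of all genes. Among follicle genes, Lgr6, a stem cell receptor of the upper follicle, stood at 39 ± 9.19 TPM, and Lgr5, that of the lower follicle, at 0.729 ± 0.353 TPM.

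The labelled cell type, epidermal, was checked against marker genes. The keratinocyte genes Krt5, Krt14, Krt1, Krt10, Trp63, Dsp and Cdh1 were all above 200 CPM in every mouse. Of genes of other skin layers, endothelial markers summed to 2.7 to 8.01 CPM with 0 of 10 genes at 1 CPM in all mice, and adipocyte markers to 1.09 to 2.51 CPM with 0 of 7. Other lists were less empty. Of 14 fibroblast genes, summing to 117 to 204 CPM, 8 (57.1%) reached 1 CPM in all mice. Of 10 Schwann cell and neuron genes, summing to 90.3 to 114 CPM, 4 (40%) did. These shares are near or below the 52.6% of all protein-coding genes. Dermal collagen genes Col1a1, Col1a2 and Col3a1 ranged from 2.59 to 13.6 CPM. Sparc, a matrix protein made by dermal and other cells, was the highest of 14 fibroblast genes with 139, 60.6, 80.1 and 82.6 CPM. Muscle markers summed to 12.8 to 18 CPM, mostly Mylpf. Hba-a1, a red cell globin with a near-identical copy, ran at 20.9 to 39.4 CPM.

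Cartilage genes were uneven over the mice. The ear holds a cartilage plate, and the 11 marker genes summed to 32.9, 9.72, 18.8 and 26.8 CPM, with 5 of 11 at 1 CPM in all mice. Cnmd, made by chondrocytes, was at 9.06, 1.66, 3.57 and 3.91 CPM. Mouse 1 was highest and mouse 2 lowest, and the same held for 4 genes outside the list that were named after their values were seen. Cytl1, a secreted protein of cartilage, measured 72.5, 9.21, 25.8 and 41.7 CPM, and Wif1, a Wnt inhibitor, 66.5, 12.5, 26.9 and 43.8 CPM. Chad, a cartilage matrix protein, measured 31.4, 4.23, 9.52 and 25.6 CPM, and Eln, which encodes elastin, 26.8, 4.79, 8.21 and 18.3 CPM. The part of such tissue in other differences between mice was not tested.

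Langerhans cells left a clear trace. Of 30 marker genes 25 (83.3%, against 52.6% of all protein-coding genes) reached 1 CPM in every mouse. The 30 genes summed to 3371, 3079, 3434 and 3788 CPM. Cd207, which encodes langerin, the lectin of their Birbeck granules, lay on chromosome 6 at 83671215 to 83677857 and measured 62.5, 59.8, 66.1 and 67.2 CPM, a CV of 5.26%. Cd74, the invariant chain of MHC class II, measured 1138, 1084, 1178 and 1257 CPM and kept a near constant ratio to Cd207 per length, 16.5, 16.4, 16.2 and 17. The class II genes H2-Ab1 (649 ± 49.1 TPM) and H2-Eb1 (374 ± 23.6 TPM) and the adhesion molecule Epcam (349.8 ± 33.2 TPM) were the next highest. Epcam also is made by follicle cells. Csf1r, the receptor that keeps Langerhans cells alive, was lower in mouse 1 (38.3 CPM) than in mice 2 to 4 (65 to 76.7 CPM). After length centring its values were 48, 58.4, 60.9 and 77.2 CPM.

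The genes tied to Langerhans cell activation that are named here were low and highest in mouse 4. Ccr7 and Cd83, like Fscn1, were named after their values were seen, and other activation genes of the Langerhans list are not given. Ccr7, the receptor for migration to lymph nodes, had 0.803, 0.529, 1.62 and 2.14 CPM and Cd83 had 2.88, 4.42, 3.74 and 7.15 CPM. Il1b was at 0.446, 0.34, 1.03 and 2.41 CPM. Ccl22, a chemokine of activated dendritic cells, was at 6.47, 3.98, 8.51 and 18 CPM, and Fscn1, an actin bundler of mature dendritic cells that was named after its values were seen, at 5, 1.26, 7.38 and 17.5 CPM. In the Langerhans list, 10 of the 18 genes of mean at least 5 CPM were highest in mouse 4 and 11 were lowest in mouse 2, against 12.3% and 19.8% of all genes. After length centring 10 were highest in mouse 4 and 5 lowest in mouse 2, against 21.2% and 27% of all genes. Mouse 1 was lowest in 4 of the 18 as counted, against 47.4% of all genes, and in 12 after length centring, against 33.1%.

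Dendritic epidermal T cells were recognisable from their receptor. Trdc, the constant segment of the delta chain, was at 20.2, 29.2, 30 and 23.1 CPM, and Cd3e, a signalling chain of every T cell receptor, at 26.1, 25.9, 31.9 and 24.5 CPM. The variable segments of the invariant receptor were Tcrg-V5 and Trdv4. Tcrg-V5 held 95.4%, 96.8%, 94.4% and 94.6% of all counts on 6 gamma variable segments, and Trdv4 held 99.5% to 99.9% of those on 6 delta variable segments. Trdv4 itself was at 11, 13.8, 14.2 and 9.6 CPM, lower in mice 1 and 4. The list's 24 of 30 detected genes included Nkg7 (88.2 ± 6.63 TPM), a granule protein of cytotoxic cells. Rora, a nuclear receptor at 574 to 699 CPM, made up most of the list's sum and is expressed by keratinocytes as well.

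Of 23 genes of alpha-beta T cells and innate lymphoid cells, 7 reached 1 CPM in every mouse. Another 11 were under 1 CPM in every mouse, and Il17a, Il5 and Ncr1 had 0 counts. Gzmb, a killing enzyme, was at 0.792, 0.566, 2.93 and 0.688 CPM, with mouse 3 highest. The constant segment Trac of the alpha chain reached 1.6 to 3.12 CPM. Trbc2, of the beta chain, was higher at 18.9 to 23.2 CPM, and per length it stood at 74.8 ± 6.37 TPM against 6.8 ± 1.82 TPM for Trac.

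Other blood cells left little RNA. Of 14 mast cell, basophil and eosinophil genes, 12 stayed under 1 CPM in every mouse, and Ms4a2, Fcer1a and Epx had 0 counts. Macrophage genes summed to 15.9 to 22.5 CPM, mostly Cd68, which Langerhans cells also make. Neutrophil genes summed to 23.3, 6.1, 35.3 and 37.9 CPM, but this sum rested on S100a8, S100a9 and Cxcr2, while Ly6g and Elane were at 0 counts. S100a9, an alarmin that keratinocytes also make under stress, was at 12.5, 1.94, 13.5 and 17.7 CPM, with mouse 2 lowest. Melanocytes were represented by Pmel (16.7 to 21.6 CPM) and Dct (14.1 to 16.6 CPM), both pigment cell genes. Of 12 Merkel cell genes, 0 reached 1 CPM in all mice.

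**Figure D3:**
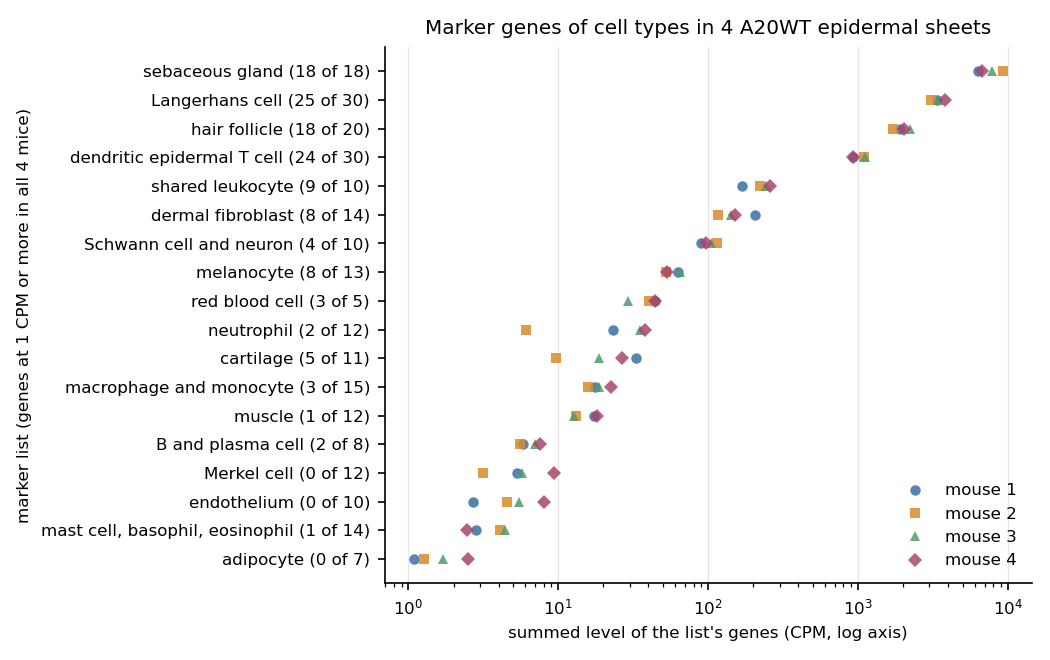
Summed CPM (horizontal log axis) of the genes of each cell type list in the 4 A20WT libraries, 1 symbol per mouse; the numbers beside each name give how many genes of the list reached 1 CPM in all 4 mice. Langerhans cell genes lie between 3079 and 3788 CPM and endothelial genes between 2.7 and 8.01 CPM, and the neutrophil and cartilage lists spread most with mouse 2 lowest in both.

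The Toll-like receptors, which sense microbial products, were low. Of 12 receptors, 3 reached 1 CPM in all mice and 9 were under 1 CPM in all. Tlr5, the flagellin receptor, was at 2.37, 5.93, 4.16 and 3.79 CPM, Tlr2, for bacterial lipoproteins, at 1.56, 2.74, 3.1 and 3.38 CPM, and Tlr3, for double-stranded RNA, at 1.28, 2.17, 2.26 and 1.79 CPM. Tlr7 had 0 counts. All 12 together summed to 5.5 ± 1.84 TPM. The downstream parts were higher: Tollip, an inhibitory partner, reached 168 ± 50 TPM, the shared adaptor Myd88 70.7 ± 7.64 TPM and the kinase Irak1 59.7 ± 10.4 TPM.

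Sensors inside the cell were a mixed group. Nod1, a receptor for bacterial cell wall fragments, ran at 76.8, 152, 115 and 133 CPM, and Nod2 at 1.04, 0.887, 2.71 and 3.04 CPM. Nod1 exceeded Nod2 per length in every mouse, by 42 to 169 times. Nlrp10, an NLR protein of differentiated keratinocytes, was at 76.5, 139, 123 and 105 CPM. Nlrp3, Nlrc4, Nlrp1a and Nlrp1b, which seed inflammasomes in other cells, stayed under 1 CPM on average. The adaptor Pycard was at 200.2, 142, 177 and 170.5 CPM and its protease Casp1 at 18.7, 19.6, 25.4 and 19.5 CPM.

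Among the pore-forming gasdermins, Gsdma was the main one with 271, 249.7, 321 and 375 CPM. It exceeded Gsdmd, the gasdermin of the canonical inflammasome route, by 43.7 to 80.1 times per length. Gsdmc spanned at least 4-fold with 26.5, 17.6, 53.1 and 76.7 CPM. Card14, a keratinocyte scaffold for NF-kB activation, stood at 71.5, 142, 116 and 137 CPM, and its partner Malt1 at 7.77, 16.4, 13.9 and 12.4 CPM.

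Receptors for nucleic acids were low to moderate. Ddx58 (RIG-I) measured 6.72, 14.4, 13 and 11.7 CPM, Ifih1 (MDA5) 8.01, 15.4, 10.9 and 9.9 CPM and Cgas 7.87, 10.4, 10.8 and 10.5 CPM. Tmem173, which encodes STING, was at 2.81 to 3.29 CPM. Mavs (42.9 ± 9.01 TPM) and Irf3 (42.7 ± 2.01 TPM) were the highest of 21 genes per length. Trex1 had 0 counts, but all of its exon length (100%) is shared with exons of another gene, so its level cannot be read from these counts.

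**Figure D4:**
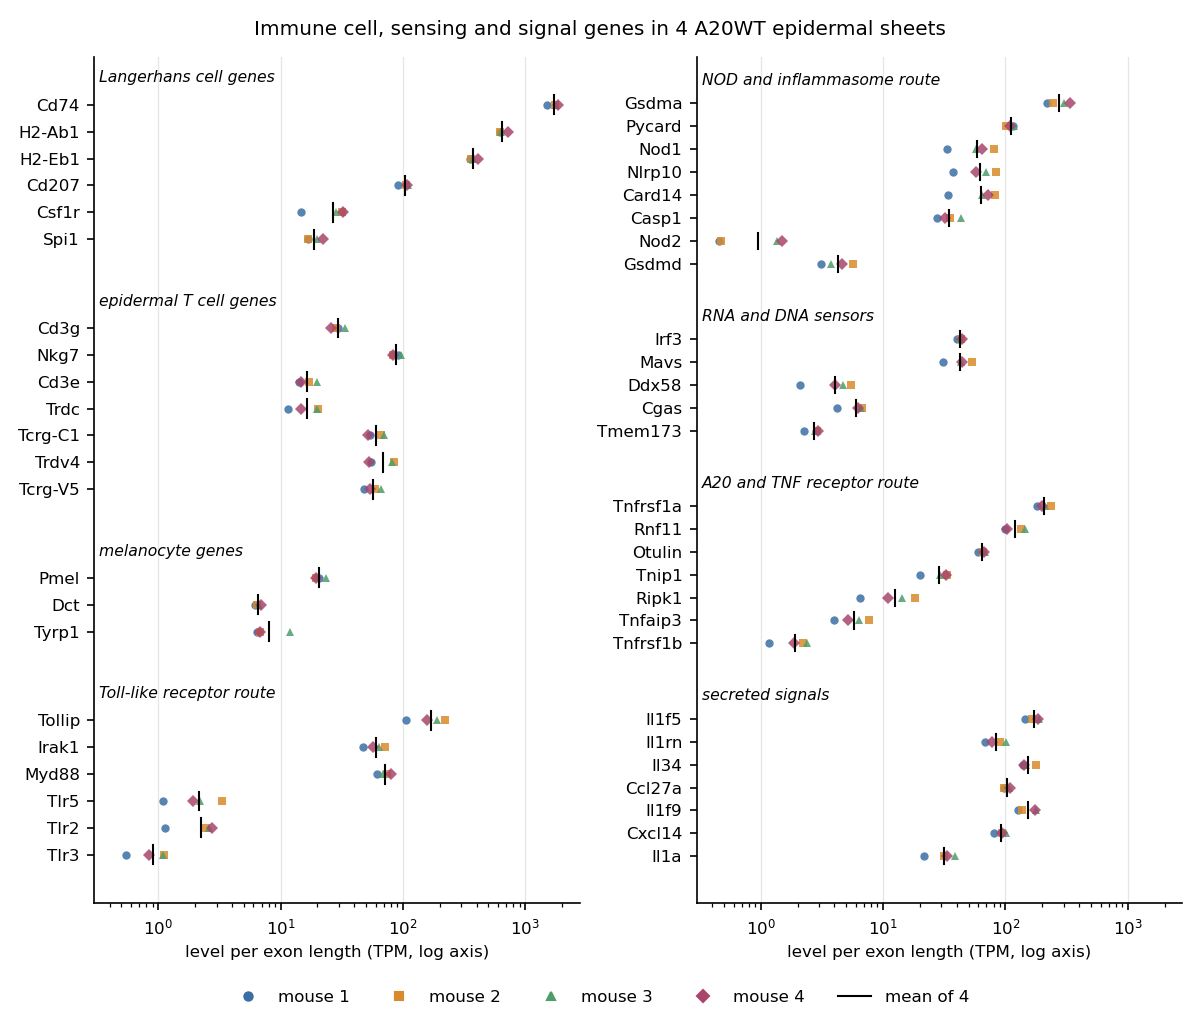
Level per exon length (TPM, horizontal log axis) of immune cell, sensing and signal genes in the 4 A20WT libraries; each symbol is 1 mouse and the black bar the mean of 4. Tollip, Irak1 and Myd88 lie above Tlr5, Tlr2 and Tlr3 in every mouse, and Tnfaip3 lies between 3.98 and 7.62 TPM.

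Tnfaip3, the gene floxed in these mice, was at 13, 20.5, 18 and 15.2 CPM, or 5.77 ± 1.57 TPM, rank 8401 among protein-coding genes. Mouse 2 was highest and mouse 1 lowest. After length centring the values were 16.3, 16.9, 16.5 and 16 CPM, a CV of 2.28%. These counts include transcripts from floxed alleles and show nothing of protein. Of the A20 and TNF receptor route, 30 of 31 genes (96.8%) reached 1 CPM in all mice, against 52.6% of all protein-coding genes. Of its 28 genes of mean at least 5 CPM, 0 spanned 4-fold. That does not set the list apart, because only 0.468% of all genes at that level did. Tnfrsf1a, the TNF receptor with a death domain, kept to 214, 228, 215 and 211 CPM and exceeded Tnfrsf1b, the other TNF receptor, by 88.5 to 156 times per length. Among partners of A20, Rnf11 (119.7 ± 22.3 TPM) and Tax1bp1 (88.2 ± 19.1 TPM) were the highest, Tnip1 was at 28.9 ± 6.19 TPM and Tnip2 at 34.2 ± 4.85 TPM. The linear ubiquitin ligase subunit Rbck1 was at 82.2 ± 12 TPM. Tnf itself was at 1.15, 1.85, 0.828 and 1.28 CPM.

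The NF-kB subunits were all transcribed, with Rela (121 ± 21.4 TPM) the highest and Rel at 12.3, 16.7, 17.5 and 14.3 CPM. Nfkbia, an inhibitor that NF-kB itself induces, was at 737, 353, 375 and 389 CPM, with mouse 1 alone high. Bcl3 was at 7.63, 3.64, 10.2 and 11.6 CPM, with mouse 2 lowest. Of 32 interferon-stimulated genes, 18 (56.2%) reached 1 CPM in every mouse, against 52.6% of all protein-coding genes, and 9 were under it in all. Isg15, a ubiquitin-like protein induced by interferon, was at 6.83, 3.96, 5.81 and 6.39 CPM. The members with high levels were MHC class I genes and Ifitm3, with H2-D1 at 1895 ± 239 TPM, B2m at 1242 ± 155 TPM, H2-K1 at 907 ± 93.2 TPM and Ifitm3 at 691 ± 124 TPM.

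Cytokines and their antagonists were both transcribed, with 24 of 35 genes of the list (68.6%) at 1 CPM in all mice, against 52.6% of all protein-coding genes. Il1rn, the interleukin-1 receptor antagonist, was at 171, 184, 221 and 176 CPM and exceeded Il1a, the alarmin, by 2.33 to 3.17 times per length. The decoy receptor Il1r2 exceeded the signalling receptor Il1r1 by 28.9 to 52.2 times. Il1f5, the interleukin-36 receptor antagonist, was at 293, 276, 333 and 339 CPM. The interleukin-36 agonists Il1f9, Il1f8 and Il1f6 stood at 154 ± 26.3, 116 ± 21.6 and 105 ± 41.3 TPM, against 171 ± 20.5 TPM for Il1f5. Il18 (175 ± 22.1 TPM) led the list, and Il34 (152 ± 17.9 TPM) was near it. Il6 and Il23a were under 1 CPM on average.

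Of the receptors for cytokines and growth factors, 33 of 36 (91.7%) reached 1 CPM in all mice, against 52.6% of all protein-coding genes. Il17rc, a subunit of the interleukin-17 receptor, led with 404, 399, 391 and 513 CPM, or 394 ± 57.8 TPM, and exceeded Il17ra by 36.5 to 77.9 times per length. Il20rb (307 ± 65.9 TPM) and Il1r2 (232 ± 14.8 TPM) followed. Il6st, the shared receptor chain of the interleukin-6 family, was at 25.5, 77.5, 57.8 and 49.1 CPM, with mouse 1 lowest. Mouse 1 was lowest in 22 of the 30 receptors of mean at least 5 CPM, against 47.4% of all genes, and in 20 after length centring, against 33.1%.

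Of 21 chemokines, 9 (42.9%) reached 1 CPM in all mice, against 52.6% of all protein-coding genes. Ccl27a, which attracts skin-homing T cells, was at 105, 86.1, 100.1 and 106 CPM, Cxcl14 at 67, 64, 72.5 and 70.1 CPM, and Cxcl16 and Cx3cl1, both membrane-bound, at 48.8 ± 7.47 and 36.8 ± 8.49 TPM. Cxcl5 and Cxcl13 had 0 counts, and Ccl2 and Cxcl2 stayed under 1 CPM on average. Of antimicrobial genes, Wfdc21 (942 ± 190 TPM) and the defensin Defb6 (395 ± 99.3 TPM) led, while Reg3g had 0 counts. Slpi, a protease inhibitor, ran at 19.1, 6.85, 11.9 and 39.1 CPM, highest in mouse 4 and lowest in mouse 2. All 11 Skint genes, the epithelial family that selects dendritic epidermal T cells in the thymus, reached 1 CPM in every mouse, with Skint9 at 165, 174, 207 and 121 CPM.

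Ligand and receptor genes that could link the cells of the sheet were read in 28 pairs, of which 20 had both genes at 1 CPM in all mice. Il34, which sustains Langerhans cells, was at 125, 129.7, 114 and 112 CPM, and it exceeded Csf1, the other ligand of Csf1r, by 11.6 to 25.1 times per length. For epidermal T cells, Il15 (9.74 to 14.3 CPM) stood beside Il2rb (9.83 to 16.2 CPM), and Cdh1 beside its T cell partner Itgae (6.96 to 13 CPM). H60c, a stress ligand that Klrk1 recognises, was at 45.7, 53.3, 61.7 and 44.4 CPM, whereas Raet1e, another such ligand, had 2 counts in all. Receptors that were missing included Il1rl1, the receptor of Il33, with a highest value of 0.0473 CPM, although Il33 itself was at 71.5 to 96.4 CPM. Ccl27a likewise stood beside a low Ccr10 of 0.461 to 0.725 CPM.

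A list of touch, heat and itch channels had 14 of 21 genes (66.7%) at 1 CPM in all mice, against 52.6% of all protein-coding genes. The list also holds other genes, such as a calcium pump, so this share is not that of sensory channels alone. Orai1, a calcium channel of store-operated entry, led with 155 ± 11.8 TPM, followed by Tmem79 (118 ± 12.3 TPM), whose loss causes dermatitis in mice, and Atp2a2 (82.7 ± 29.7 TPM), the calcium pump mutated in Darier disease. Trpv3 was at 7.73, 16.4, 15.8 and 13.3 CPM. Trpa1, an irritant receptor of nerves, had 0 counts.

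Between mice, the median gene of mean at least 5 CPM had a CV of 15.4%, over 10247 genes, and the range from the 10th to the 90th percentile was 6.45% to 28.5%. The 2 sequencing lanes of a library differed far less, with a median CV between 2.43% and 3%. Leaving out mouse 1 brought the median between mice to 10.25%, and length centring brought it to 11.62%. Only 48 genes (0.468%) spanned at least 4-fold. In 31 of them mouse 4 was highest and in 40 mouse 2 was lowest, against 12.3% and 19.8% of all genes at that level. Without mouse 4 the count was 20, and without mouse 2 it was 29.

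The genes of highest CV fell into few groups. Of the 12 at the top among 6982 protein-coding genes of mean at least 20 CPM, 11 were highest in mouse 4 and lowest in mouse 2. That order was held by 357 of 10010 protein-coding genes of mean at least 5 CPM. Krt6b, a keratin of wounded and hyperproliferative epidermis, led with 43.3, 1.64, 11.3 and 298 CPM. Krt16, its type I companion, had 212, 26.1, 140.3 and 810.5 CPM, and Krt6a had 143, 47.5, 70.7 and 359 CPM. Krt6a and Krt6b are near copies, so their shares are uncertain.

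Beside these keratins stood Sprr2a3, Sprr2d, Sprr2h, Sprr1b, Lce3c and Klk6, given above, and 2 further genes. Alox8, a lipoxygenase inducible in mouse skin, was at 15.9, 10.7, 42.3 and 88.1 CPM. Chil1, a chitinase-like secreted protein, was at 135, 92.9, 203 and 483 CPM. None of these values moved by over 1.5 times under length centring. The Lce3 and Langerhans activation genes described above were highest in mouse 4 too, and what set mouse 4 apart was not tested. The sum of the neutrophil list was close in mice 3 and 4, at 35.3 and 37.9 CPM. Of its 3 genes of mean at least 5 CPM, 2 were highest in mouse 3.

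Fos, the remaining gene of the 12, did not follow that order. This immediate-early transcription factor had 233, 31.4, 28.8 and 21.3 CPM, with mouse 1 apart. Atf3 (40.5, 9.82, 8.65 and 6.13 CPM) and Dusp1 (425, 214, 177 and 174 CPM), both induced by stress, were also highest in mouse 1, as was Fosb with 7.88, 3.85, 0.887 and 0.902 CPM. Of 26 immediate-early and stress genes of mean at least 5 CPM, 15 were highest in mouse 1, against 29.6% of all genes at that level. After length centring 11 of them were highest in mouse 1 and 10 in mouse 4, against 34.9% and 21.2% of all genes. In the same list Btg2, an antiproliferative gene, kept to 141, 142, 143 and 139 CPM. Junb, a partner of Fos, was at 348, 297, 304 and 397 CPM.

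At the steady end, the 8 genes with the lowest CV were Smc1a, Snx6, Acp6, Lzic, Ecsit, Tepsin, Btg2 and Cct3. Smc1a, a cohesin subunit, was at 100.1, 99.4, 99.3 and 99.2 CPM, a CV of 0.381%, and Cct3, a chaperonin subunit, varied from 261 to 268 CPM. Part of this steadiness depended on the scaling: after length centring the CV of Smc1a was 17.5%, and those of the other 7 genes ran from 2.85% to 9.82%. Of all genes of mean at least 5 CPM, 25% had a CV under 10%.

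**Figure D5:**
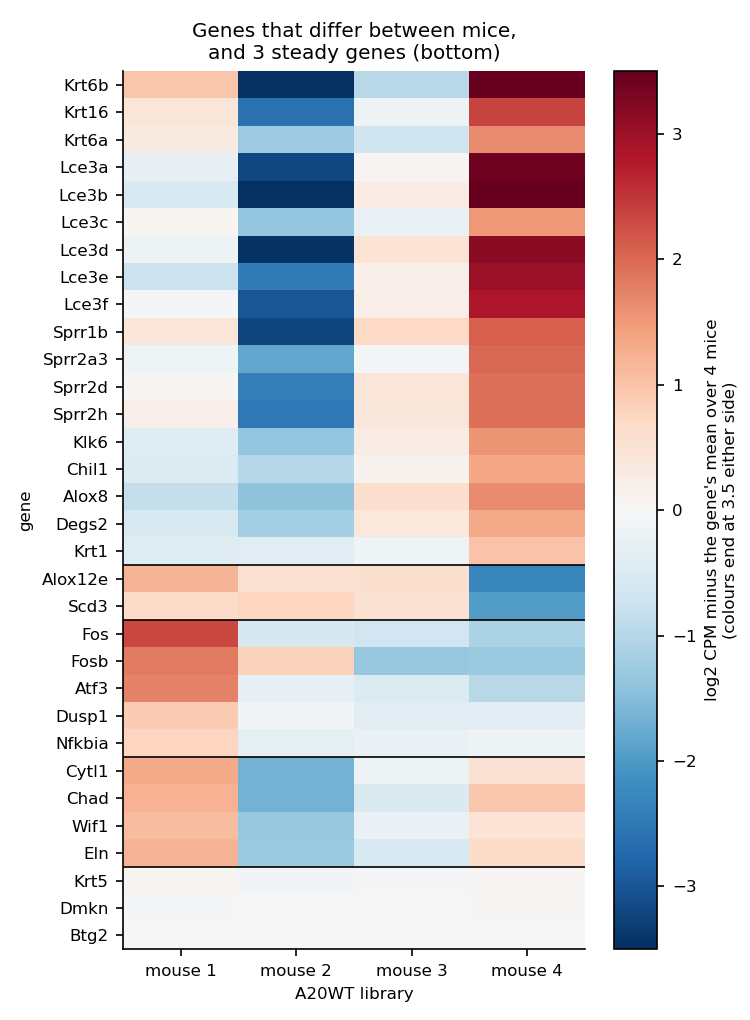
Log2 CPM minus the gene's mean over the 4 A20WT libraries (colour, ends at 3.5 either side) for genes in rows and mice in columns. From the top, 18 genes are highest in mouse 4, 2 are lowest in mouse 4, 5 are highest in mouse 1, Cytl1, Chad, Wif1 and Eln are highest in mouse 1 and lowest in mouse 2, and 3 steady genes show almost no colour.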

How the data were processed

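Each deposited file gives raw read counts for Ensembl gene identifiers, in 2 columns that are taken as lanes from their names alone. Their sums are above the mean number of reads per sample in the labels, and whether reads or pairs were counted is not known, so totals, the limit of 3 counts and the lane CV rest on the columns as given. Libraries were made with SMART-Seq v4 and Nextera kits and read on a NovaSeq, per the labels. Per the submitters' processing notes, the tools were STAR 2.4.2a, Picard 1.139 and HTSeq 0.6.1p1. The notes list GRCm38.p5 beside GRCh38 as builds, without their roles. For the annotation release and the counting options, the sources used here give nothing. The kit does not mark strand, so reads from overlapping genes cannot be told apart.

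The lanes were summed and scaled to the library total (CPM). Exon lengths came from the union of exons in GENCODE M21 and gave TPM for 51719 of 51912 identifiers, and 51633 had a symbol. Coordinates are GRCm38. Detection means at least 1 CPM in each of 4 libraries, and CV is SD over mean. With 1 group there was no test and no p-value. Calculations used Python 3.11.15 with pandas 2.3.3 and NumPy 2.4.6, and TMM factors came from edgeR 4.0.16 in R 4.3.3. The spread and length-centring steps were tested on simulated data. Total counts ranged from 52972464 to 89624373 per library. Replicates were different mice.

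Members and lists were chosen with earlier results of these data known. Genes were named if they were Tnfaip3, Krt5 or Krt14, among the 20 highest by TPM, in a ligand and receptor pair, among the 12 highest or 8 lowest by CV at a mean of at least 20 CPM, or, in a list, among the 4 highest by TPM, the 2 highest by CV, the first 3 or those at 0 counts. Of 237 genes named in the text, 48 lay outside this rule and were chosen after their values were seen: 2610528A11Rik, Alox12b, Aox4, Awat1, Casp1, Ccl2, Ccnd1, Ccr7, Cd3e, Cd83, Cdsn, Cgas, Chad, Cxcl2, Cytl1, Dsg4, Dsp, Dusp1, Eln, Fscn1, Gch1, Gm47283, Gsdmd, Gzmb, Il17ra, Il1f8, Il23a, Il6, Junb, Krt23, Myoc, Nlrc4, Nlrp10, Nlrp1a, Nlrp1b, Nlrp3, Slpi, Spink5, Sprr2a2, Tgm1, Tgm3, Tgm5, Tlr5, Tmem173, Tmem242, Tnfrsf1b, Wif1 and Xist. Alternatives covered scaling, lane, depth, left-out mice, thresholds and gene length. Length centring and the removal of genes under 200 bases were added after seeing the data. Some junction genes are not reported here.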

Additional observations from a re-analysis of the deposited data

Results flagged for a closer look

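In 17 of 236 values examined, 1 mouse stood apart, with the gap to its nearest neighbour divided by the whole range of the 4 mice above Dixon's critical value. Chance sets about 1 in 20 such groups apart among unselected genes. The values examined are those of genes named in the text, many chosen for a high spread or after their values were seen, so their share of 7.2% cannot be read against it. Mouse 1 was apart and high for Fos (gap over range 0.952), Nfkbia (0.907), Krt27 (0.906), Atf3 (0.893) and Dusp1 (0.841). It was apart and low for Lgr5 (0.869), Cgas (0.857) and Alox12b (0.842). Mouse 4 was apart and high for Lce3b (0.924), Lce3a (0.909), Il17rc (0.890), Krt1 (0.877) and Krt6b (0.859). Mouse 3 was apart and high for Tcrg-V5 (0.958), Gzmb (0.905), Casp1 (0.877) and Epcam (0.853), of which Tcrg-V5 and Epcam differed little in size, from 7.44 to 8.91 CPM and from 304 to 327 CPM. These gaps were taken on CPM as counted, and length centring changed some of them. Tcrg-V5 then stood at 5.75, 9.17, 9.27 and 7.63 CPM, with mouse 3 no longer apart. Casp1 ran at 16.4, 21.2, 26.6 and 19.7 CPM. Cgas became 9.44, 9.17, 10.2 and 10.6 CPM, with mouse 2 lowest.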

How the results depend on the processing

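The number of genes detected in all libraries was 13125 at 0.5 CPM and 9746 at 5 CPM, against 12175 at 1 CPM. With 1 mouse left out in turn, detected genes ranged from 12224 to 12320, the top 10 share from 12.06% to 12.75%, the keratin share from 10.47% to 11.2%, the median CV from 10.25% to 17.13% and the genes spanning 4-fold from 20 to 47. The keratin share was 9.133% with the longest transcript as gene length. The median CV was 11.62% with length centring. Genes spanning 4-fold were 160 at a mean of at least 1 CPM and 21 at a mean of at least 20 CPM. The cause of these shifts was not tested, apart from the number of genes examined. Of 624 summed list levels under alternatives 16 moved by more than 1 SD, and of 2370 gene levels 13 did. No paired analysis was possible because the results come from 1 group and no test. Genes near 3 counts in a library, 0.0335 to 0.0566 CPM, cannot be told from 0.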

Other observations

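Clock genes, which drive daily rhythms, were all present, with 18 of 18 at 1 CPM in every mouse. Nr1d1, a repressor of the clock, led per length with 192 ± 44.3 TPM and measured 179, 264, 254 and 249 CPM. Dbp, an output gene of the clock, measured 157, 134, 138 and 154 CPM. The labels give no hour of killing.

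Several further genes differed widely between these mice. Gch1, the first enzyme of tetrahydrobiopterin synthesis, was at 29.2, 4.72, 5.73 and 22.4 CPM, and 2610528A11Rik at 10.6, 0.321, 1.3 and 9.32 CPM. Both were higher in mice 1 and 4. Tmem242 had the reverse order with 18.6, 55.9, 61.1 and 11 CPM. Ang, a secreted ribonuclease, was at 17.5, 2.47, 2.97 and 7.96 CPM. Stfa3, a protease inhibitor of the stefin family, was at 2.98, 1.09, 8.02 and 13.6 CPM and Aox4, an aldehyde oxidase, at 11.9, 15.6, 32.4 and 50.6 CPM. Myoc was at 26, 3.3, 7.52 and 10.7 CPM.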
